A study of Mus musculus with 6 samples.

Results

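Chromatin accessibility was examined at 46 genes that are switched on when muscle precursors become contracting fibres, in muscle stem cells (MuSCs) that carry or lack the transcription initiation factor TAF4A. The set comprised myosin heavy and light chains, actins and actinins, troponins and tropomyosins, giant, Z-disc and M-band proteins, proteins of excitation-contraction coupling, subunits of the muscle acetylcholine receptor, muscle creatine kinase (Ckm) and the fusion protein Myomaker (Mymk). A peak was taken as belonging to one of these genes when the deposited annotation gave that gene's symbol. This left 77 peaks of the 75412 in the whole data set, at 40 of the 46 genes. No annotated peak was found for Myh8, Myom2, Cacna1s, Casq2, Ldb3 and Myoz2. One peak was annotated to 15 of the genes, 2 peaks to 15, 3 peaks to 8 and 4 peaks to Tpm2 and Chrna1. All 77 peaks had a mean value above 10 over the libraries, so none was lost to the filter on low values.

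The assay was ATAC-seq, which cuts and tags open DNA with the Tn5 transposase and thereby reads accessibility. Libraries came from freshly isolated MuSCs of C57BL/6 mice, 3 from control and 3 from Taf4a sKO animals. In Taf4a sKO mice a tamoxifen-dependent Cre recombinase expressed from the Pax7 locus removes exons 11 and 12 of Taf4a, so that deletion is limited to cells in which Pax7 is active and depends on the efficiency of recombination. According to the methods, the animals were 8 to 20 weeks old and of both sexes, and controls were littermates with the same floxed Taf4a alleles, with or without the Cre allele. The sample titles call the controls WT. Tamoxifen, injected into the abdomen, is listed for the Taf4a sKO group and not for controls in the description of the strains. A legend for body weights, however, names tamoxifen for control and Taf4a sKO mice together. Whether the controls of these libraries received it is not given in the sources used here. If they did not, the agent and the deletion cannot be told apart. Whether cells of several animals were pooled is not given in the sources used here. The cells had been depleted of SCA1+, CD45+ and CD31+ cells before sorting for Integrin-alpha7 or a reporter.

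MuSCs lie beneath the basal lamina of the muscle fibre and express Pax7. When they are activated, the basic helix-loop-helix factors MYF5 and MYOD drive them towards myoblasts, and myogenin (Myog) together with MEF2 factors switches on the genes of the sarcomere, the repeating unit in which myosin pulls on actin. Basic helix-loop-helix factors bind the E-box, the letters CANNTG. A resting stem cell has no sarcomeres, and an open promoter or enhancer at such a gene does not by itself mean that the gene is transcribed.

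Values are those of the deposited table, which are read counts per peak scaled for sequencing depth and rounded to whole numbers. They summed over all peaks to 37722015, 35226223 and 42803315 in control and to 44311913, 41661725 and 41948821 in Taf4a sKO libraries. Because longer peaks collect more reads, levels of different peaks are compared below only as value per 1000 bp of peak. Differences between genotypes are log2 fold changes of Taf4a sKO over control on log2(value + 1), with standard errors (SE) and Benjamini-Hochberg adjusted p-values from limma over all 75384 peaks with a mean above 10. Peaks with an adjusted p under 0.05 are termed higher or lower. Gained and lost refer to peaks whose group means differed by more than 1 on the log2 scale. In a bulk library a smaller share of cells with an open site and a lesser opening in each cell cannot be told apart.

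The identity of the samples was checked first. Over exon 12 of Taf4a, one of the floxed exons, the peak chr2:179922849-179923263 of the build mm10 had values of 65, 78 and 137 in control and of 44, 22 and 25 in Taf4a sKO libraries. The genotypes did not overlap, and the log2 fold change was -1.58 (SE 0.30, adjusted p = 3.4e-04, limma). All of 8 MuSC marker genes carried a promoter peak, and their summed signal was 27815, 23080 and 28436 in control and 29968, 27519 and 28219 in Taf4a sKO libraries, with the largest summed value at Pax7 (mean 6599 in control). These sums run over peaks of different number and length and are not compared between genes. Of 8 haematopoietic genes, none carried a promoter peak, and Ptprc, Laptm5, Cd3e and Itgb2 had no annotated peak at all. Their summed signal was 1102, 1195 and 1275 in control and 1490, 1337 and 1647 in Taf4a sKO libraries, most of it at Spi1 with a mean of 662 in control. For 8 endothelial genes (Tie1 and Emcn without peaks, largest summed value 1610 at Tek) the sums were 2825, 2599 and 3200 against 3459, 3489 and 3360. Fibro-adipogenic genes (7 of 8 with peaks, Ly6a without, largest summed value 3946 at Col1a1) summed to 12381, 11495 and 14042 in control and to 16581, 15508 and 15061 in Taf4a sKO libraries. Mural and smooth muscle genes (5 of 6 with peaks, Rgs5 without, largest summed value 2412 at Acta2) summed to 6890, 6296 and 7704 against 8640, 8532 and 8526. The paper reports that sorted cells were reanalysed and were not fully pure. The part of these other cell types in the results was not tested.

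Peaks were found at the 5′ end of some of the muscle structural genes. The deposited peaks were unified over both genotypes, so that the presence of a peak is not a property of control MuSCs alone. A peak centre lay within 1000 bp of the 5′ end of the gene for 23 of the 46 genes (50%), compared with 59.8% of 21911 protein-coding genes. In the list of 11 myogenic regulators, such as Myod1 and Myf5, 9 genes had a peak there. Of 67 further fibre genes, 35 did. The 5′ end peaks of Myl4 and Actn3 are annotated to their neighbours Cdc27 and Zdhhc24, which leaves 21 promoter peaks under the symbols of the structural genes themselves. The share of genes with a promoter peak depended on where the start was placed. With the RefSeq start, known for 37 of the genes, 16 (43.2%) had a peak compared with 62.2% of 17492 protein-coding genes. Counting the start of any transcript, 28 of 46 (60.9%) did, compared with 65.0%. Within 3000 bp of the 5′ end the order turned, with 37 of 46 genes (80.4%) against 65.3% of protein-coding genes. It also turned when any overlap of a peak with the 1000 bp on either side of the 5′ end was counted, with 30 of 46 (65.2%) against 61.7%.

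Where a promoter peak was present it was usually weak. The 21 promoter peaks had a median of 473 per 1000 bp in control, while 12059 promoter peaks of protein-coding genes had a median of 1065. The median gene of the set stood at percentile 22.1 of all coding promoters, and single control libraries gave 21.6, 22.4 and 20.4. Only 4 of the 21 lay above the median of coding promoters, namely Mylpf at 3157, Myom1 at 2734, Des at 1555 and Mybpc1 at 1205 per 1000 bp. The first 2 of these peaks also cover the start of another protein-coding gene. The Mylpf peak, for a fast regulatory myosin light chain, covers the start of Tbc1d10b, and the Myom1 peak, for the M-band protein myomesin, covers the starts of Myl12a and Myl12b, which encode non-muscle myosin light chains. The RefSeq starts of Mylpf and Myom1 lie 2718 and 16924 bp from the annotated 5′ ends, and no peak was centred within 1000 bp of them. The same held for Ckm and Tnni1, whose RefSeq starts lie 6318 and 19987 bp from the annotated 5′ ends. Leaving out the peaks of Mylpf and Myom1, the median of the other 19 fell to 377 per 1000 bp, at percentile 17.7. Des, which encodes the intermediate filament protein desmin, had the strongest of the promoter peaks at annotated 5′ ends that covered no other protein-coding start, with values of 2356, 2154 and 2491 in control and of 2066, 1957 and 1862 in Taf4a sKO libraries. By RefSeq starts the order differs, since a Tpm3 peak of 2003 per 1000 bp (chr3:90079132-90080651) is centred 370 bp from one of them. That start lies within the gene, and the same peak is centred 7243 bp from the annotated 5′ end of Tpm3. After Des and Mybpc1, the next in order were Myh1 at 878, Tpm2 at 840, Chrnd at 632 and Actn2 at 609 per 1000 bp. At the low end stood Mymk at 95.2, Myh4 at 104, Chrng at 137 and Tnnc2 at 145 per 1000 bp. Peaks away from 5′ ends were close to comparable peaks. The 54 peaks of the set whose centre lay over 1000 bp from the 5′ end of any protein-coding gene, and which covered no other coding start, had a median of 423 per 1000 bp, compared with 391.8 for 11201 such peaks annotated to protein-coding genes.

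**Figure D1:**
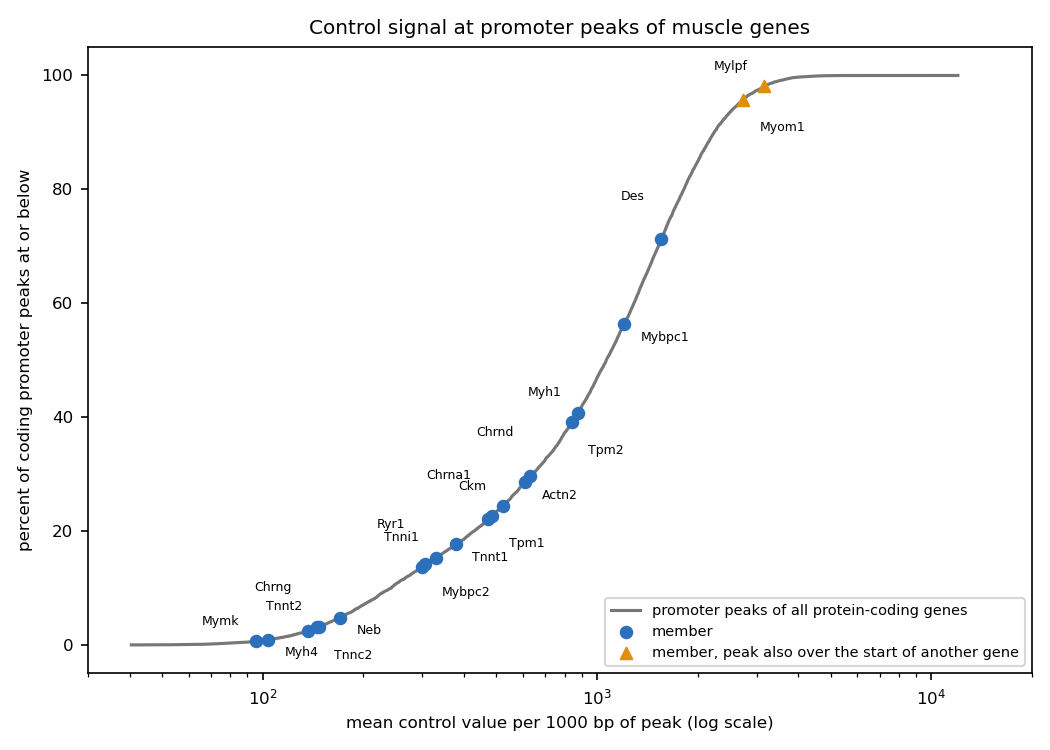
Mean control value per 1000 bp of peak (log scale) for the 21 promoter peaks of muscle structural genes (points), placed on the cumulative curve of all 12059 promoter peaks of protein-coding genes. The y axis gives the percent of coding promoter peaks at or below each value. Triangles mark Mylpf and Myom1, whose peaks also cover the start of another gene. Most points sit on the lower part of the curve.

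The sequence before the RefSeq start of these genes differed in composition from that of most coding genes. In the 250 bases upstream of the start, the ratio of observed to expected CpG dinucleotides had a median of 0.265 over 37 genes of the set, compared with 0.530 over 17492 protein-coding genes, whereas the G+C content was similar with medians of 56.8% and 55.6%. Only 6 of the 37 genes exceeded the CpG median of coding genes. These were Myl4, Mybpc1, Tpm1 and Tpm2, which had a peak at the RefSeq start, and Myh2 and Myh8, which had none. Genes with a peak at the start had a median ratio of 0.363, and genes without one had 0.230. The letters CAGCTG, an E-box favoured by MYOD, were found in 18 of 37 upstream stretches (48.6%), compared with 13.8% of all coding genes, with both strands searched here and for all motifs. They occurred in 8 of 16 genes with a peak at the start and in 10 of 21 without. The looser letters CANNTG, which include CAGCTG, were found in 83.8% against 66.3%. A MEF2 site and a CArG box, the binding motif of serum response factor, were each found in 6 of 37 stretches (16.2%), against 3.12% and 1.60%. The TEAD motif CATTCC was found in 32.4% against 13.5%, and TATAAA in 24.3% against 13.7%. The letters GGGCGG, bound by SP1-like factors, were less frequent than among coding genes at 29.7% against 45.8%, and they fell mostly in genes with a peak at the start, 9 of 16 compared with 2 of 21. CCAAT, the letters bound by NF-Y, was found in 35.1% against 39.5%, and TGANTCA, bound by AP-1, in 8.11% against 7.19%. A match of letters describes the sequence and does not show binding.

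**Figure D2:**
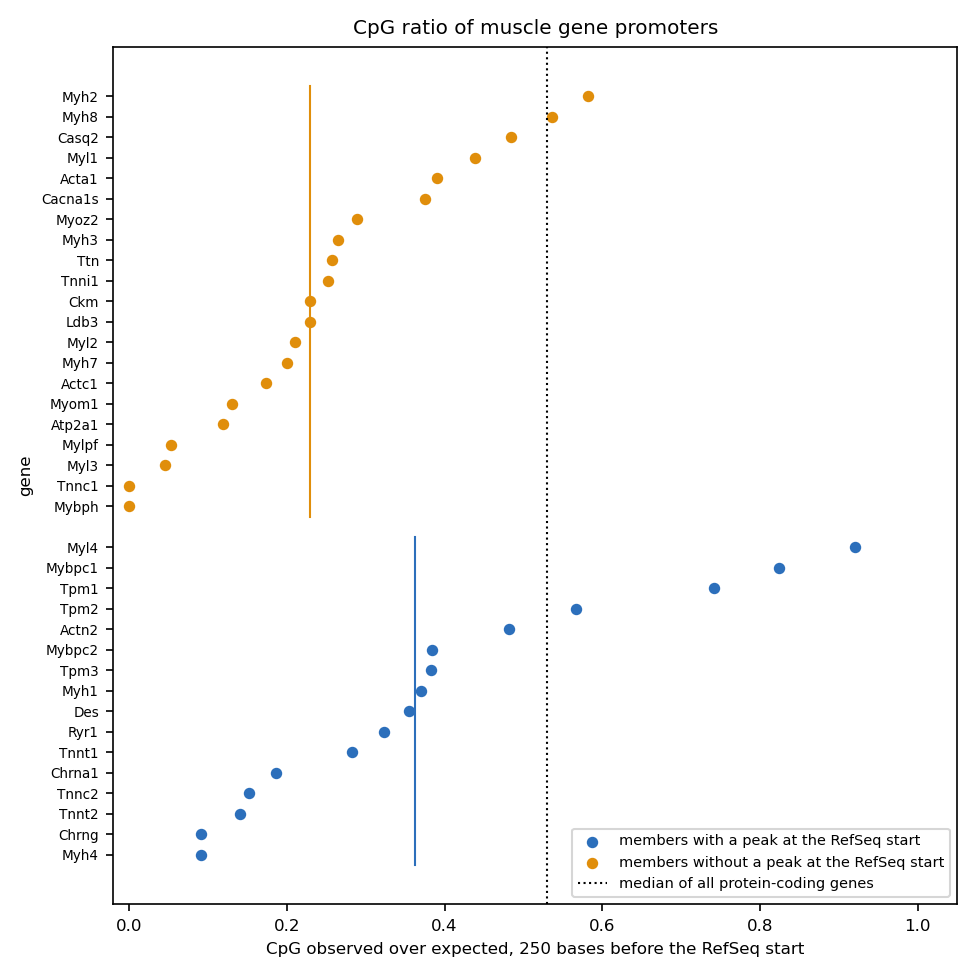
Ratio of observed to expected CpG in the 250 bases before the RefSeq start for 37 muscle structural genes, split by whether a peak was centred within 1000 bp of that start. Solid lines mark the medians of 0.363 and 0.230, and the dotted line the median of 0.530 over all protein-coding genes.

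Upstream stretches of 100 bases are shown for some genes at both ends of the promoter order and for skeletal actin (Acta1). They were read from RefSeq on GRCm38.p6, from 5′ to 3′ on the strand of the gene, and end 1 base before the start. Capitals mark CANNTG, a MEF2 site, a CArG box or TATAAA. Des (chr1:75360192-75360291, plus strand) and Mybpc1 (chr10:88605153-88605252, minus strand) had the strong promoter peaks that covered no other protein-coding start, and both hold CAGCTG. Actn2 (chr13:12340733-12340832, minus strand) holds CACGTG at 2 places. The stretches of Myh1 and Tpm2, next after Des and Mybpc1 in the promoter order, are not printed and hold no CANNTG. That of Ckm, also not printed, holds none either, while that of Myom1 holds 1 CANNTG and a CArG box. Tnnc2 (chr2:164779735-164779834, minus strand), Chrng (chr1:87205711-87205810, plus strand) and Myh4 (chr11:67237712-67237811, plus strand) were among the weakest. Acta1 (chr8:123894776-123894875, minus strand), with a CArG box and TATAAA, had no peak at its start, nor had Mylpf (chr7:127211508-127211607, plus strand).
Des: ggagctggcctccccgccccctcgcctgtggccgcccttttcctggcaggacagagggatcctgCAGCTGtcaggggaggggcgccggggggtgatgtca
Mybpc1: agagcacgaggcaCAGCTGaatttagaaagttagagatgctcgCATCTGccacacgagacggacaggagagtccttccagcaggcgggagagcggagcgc
Actn2: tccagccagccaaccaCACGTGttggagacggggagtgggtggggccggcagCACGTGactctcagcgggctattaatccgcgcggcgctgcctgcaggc
Tnnc2: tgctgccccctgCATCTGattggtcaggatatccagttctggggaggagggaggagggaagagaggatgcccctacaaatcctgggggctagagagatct
Chrng: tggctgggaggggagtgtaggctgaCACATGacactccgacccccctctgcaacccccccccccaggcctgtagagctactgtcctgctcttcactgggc
Myh4: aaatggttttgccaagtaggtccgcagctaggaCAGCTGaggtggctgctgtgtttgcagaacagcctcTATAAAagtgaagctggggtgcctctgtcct
Acta1: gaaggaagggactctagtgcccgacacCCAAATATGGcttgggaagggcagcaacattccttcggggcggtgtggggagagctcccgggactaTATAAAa
Mylpf: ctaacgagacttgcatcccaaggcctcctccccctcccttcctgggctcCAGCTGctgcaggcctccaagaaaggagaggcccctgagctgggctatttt

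The accessibility of these genes differed between the genotypes in both directions. By limma, 10 of the 77 peaks (13.0%) were higher and 14 (18.2%) lower in Taf4a sKO libraries, and 53 were not called. Without control replicate 3 the balance turned, with 16 higher and 13 lower, compared with 37.8% and 12.9% of all tested peaks in that fit. Over all 75384 tested peaks, 28.0% were higher and 13.9% lower, 41.9% in all. Among the 23353 tested peaks annotated to a protein-coding gene, 17.8% were higher and 9.68% lower. The share of rises in the set was thus below both backgrounds and the share of falls above both, with no test made of these differences. The number of lower peaks also moved with the scaling between libraries, to 18 with median-of-ratios factors (22.5% of all tested peaks lower) and to 28 with quantile normalization (25.1%). The median log2 fold change was 0.02 (quartiles -0.17 and 0.16) for the 77 peaks and 0.11 for all tested peaks. Genotypes did not overlap at 30 of the peaks, with all Taf4a sKO values above all control values at 14 (18.2%, background 32.3%) and below them at 16 (20.8%, background 18.0%). By the fold threshold 1 peak was gained (background 7.03%) and 3 were lost (background 5.36%). Among the 23353 tested peaks annotated to a protein-coding gene, 701 were gained and 628 lost. Lost peaks numbered 5 with median-of-ratios factors and without Taf4a sKO replicate 1. With a mean above 50, 0 peaks were gained and 0 lost. The signal of the 77 peaks made up 0.117%, 0.116% and 0.112% of the summed signal in control and 0.105%, 0.104% and 0.104% in Taf4a sKO libraries. The genotypes did not overlap in this share, which is relative to the sum over all peaks. The summed values of the 77 peaks themselves overlapped, with 44239, 40891 and 47890 in control and 46686, 43136 and 43648 in Taf4a sKO libraries. Rises were found at 6 genes without a fall, falls at 10 genes without a rise, and Actn3 had one of each. At 23 genes no peak was called. Thus 17 of 40 genes (42.5%) had a called peak, compared with 34.0% of 14069 protein-coding genes with an annotated peak, which had fewer peaks per gene (mean 1.65 against 1.93).

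**Figure D3:**
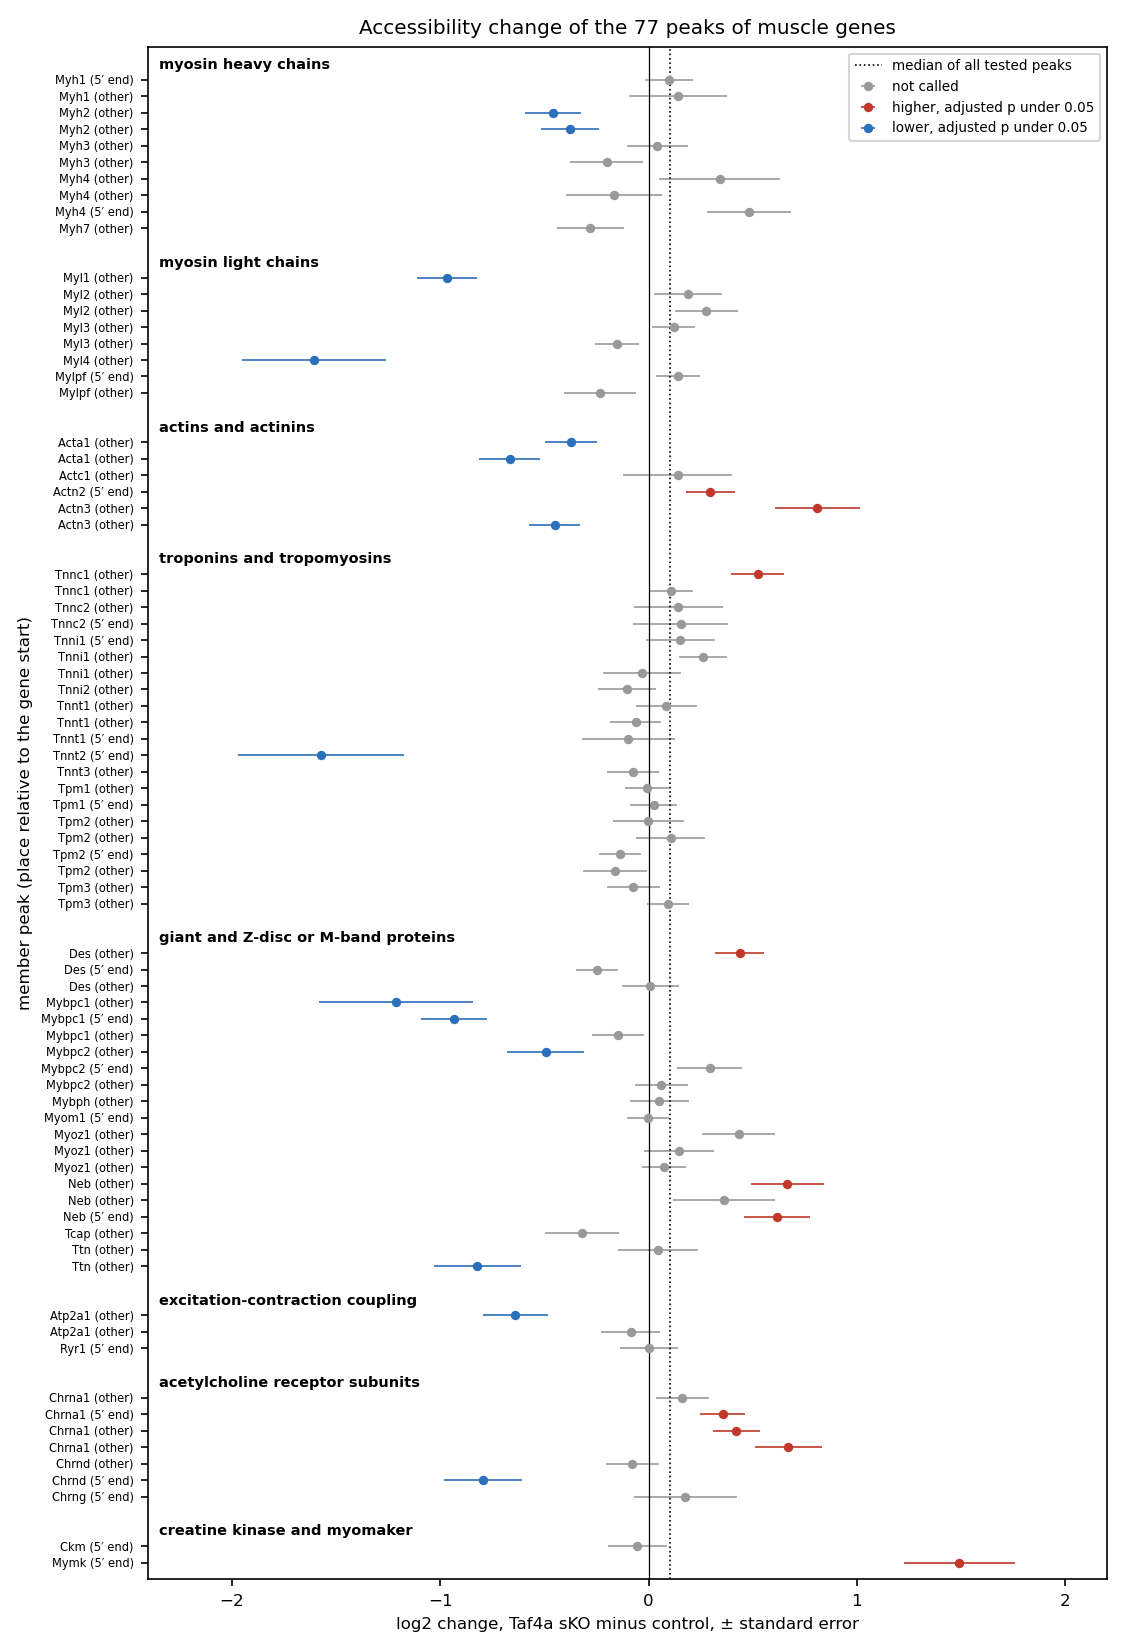
Log2 change of each of the 77 peaks, Taf4a sKO minus control, with its standard error from limma, ordered by gene role and gene. Red peaks were higher and blue peaks lower at an adjusted p under 0.05, and grey peaks were not called. Labels give whether the peak lies at the 5′ end of its gene or elsewhere. The dotted line is the median of all tested peaks, 0.11.

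The largest rises and falls lay at the peaks whose sequences follow. They were read from GRCm38 on the strand of the gene, up to 300 bases around the centre of the peak, with every CANNTG in capitals. The rises were at Mymk (chr2:27071265-27071481, minus strand), Actn3 (chr19:4867856-4868155, minus strand) and 8879 bp upstream of Chrna1 (chr2:73589067-73589366, minus strand). The falls were at Myl4 (chr11:104558151-104558310, plus strand), Tnnt2 (chr1:135836179-135836353, plus strand, up to the start of the transcript) and Mybpc1 (chr10:88599933-88600084, minus strand). CANNTG occurs at 0 places in the Mymk stretch, at 2 in those of Actn3, Chrna1 and Mybpc1 and at 3 in those of Myl4 and Tnnt2. The Myl4 stretch also holds a MEF2 site.
Mymk: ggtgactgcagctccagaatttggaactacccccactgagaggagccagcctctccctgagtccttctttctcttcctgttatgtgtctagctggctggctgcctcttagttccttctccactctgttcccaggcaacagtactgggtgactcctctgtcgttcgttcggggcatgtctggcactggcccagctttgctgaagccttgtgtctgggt
Actn3: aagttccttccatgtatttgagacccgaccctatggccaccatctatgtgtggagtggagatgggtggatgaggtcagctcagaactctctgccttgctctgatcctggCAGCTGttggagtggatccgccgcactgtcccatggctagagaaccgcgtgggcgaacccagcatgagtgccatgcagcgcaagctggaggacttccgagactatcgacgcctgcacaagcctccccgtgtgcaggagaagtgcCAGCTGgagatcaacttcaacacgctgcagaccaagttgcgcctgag
Chrna1: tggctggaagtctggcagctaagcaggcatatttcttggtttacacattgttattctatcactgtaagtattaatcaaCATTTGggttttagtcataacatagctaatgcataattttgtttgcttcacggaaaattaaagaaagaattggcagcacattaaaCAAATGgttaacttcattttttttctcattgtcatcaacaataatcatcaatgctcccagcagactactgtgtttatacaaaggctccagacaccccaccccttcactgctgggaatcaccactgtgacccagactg
Myl4: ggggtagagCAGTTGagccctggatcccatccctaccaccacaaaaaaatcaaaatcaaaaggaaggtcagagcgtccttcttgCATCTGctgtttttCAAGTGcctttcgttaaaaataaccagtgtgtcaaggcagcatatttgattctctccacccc
Tnnt2: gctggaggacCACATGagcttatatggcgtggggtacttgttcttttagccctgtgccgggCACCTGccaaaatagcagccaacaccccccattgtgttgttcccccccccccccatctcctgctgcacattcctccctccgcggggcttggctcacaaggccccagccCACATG
Mybpc1: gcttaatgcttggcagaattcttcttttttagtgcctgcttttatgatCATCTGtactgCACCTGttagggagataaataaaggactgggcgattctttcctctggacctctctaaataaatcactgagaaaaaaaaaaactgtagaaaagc

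Over the central 150 bp of all 77 peaks, CANNTG was present in 63.6%, compared with 57.8% of all tested peaks, and CAGCTG in 22.1% compared with 17.1%. CANNTG was found in 7 of the 10 peaks that were higher and in 11 of the 14 that were lower. CATTCC was present in 18.2% of the peaks of the set against 10.4%. The AP-1 letters TGANTCA were present in 3 of 77 peaks (3.90%) against 13.9% of all tested peaks. CCAAT, the letters of NF-Y, were found in 12 of 77 (15.6%) against 18.0%, in 1 of the 10 higher and in none of the 14 lower peaks. Among the same higher and lower peaks, CAGCTG was found in 1 and 3, CATTCC in 1 and 4, TGANTCA in 0 and 2 and GGGCGG in 1 and 1. These splits rest on few peaks and were not tested.

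Peaks of the myosin heavy chains, the motor proteins of the thick filament, gave 2 falls and no rise among 10, against the 13.9% and 28.0% of all tested peaks. On chromosome 11 the embryonic (Myh3), fast (Myh2, Myh1, Myh4) and perinatal (Myh8) genes stand in a row. The strongest peaks of this cluster lay before Myh2, which encodes the myosin of fast oxidative fibres. The peak 5993 bp upstream of its start (chr11:67164724-67165344) had values of 1081, 922 and 1434 in control and of 885, 788 and 791 in Taf4a sKO libraries. It was lower in all Taf4a sKO libraries, with a log2 fold change of -0.46 (SE 0.14, adjusted p = 0.010, limma). The nearer peak, 1418 bp upstream, had values of 911, 818 and 1026 against 840, 559 and 746. One Taf4a sKO library overlapped the controls here, and the log2 fold change was -0.37 (SE 0.14, adjusted p = 0.036, limma). This call was lost without control replicate 3 (adjusted p = 0.11, limma) and without Taf4a sKO replicate 2 (-0.21, adjusted p = 0.28, limma). No peak was centred within 1000 bp of the Myh2 start. At Myh1, the peak over the start had values of 1136, 992 and 1348 in control and of 1255, 1198 and 1239 in Taf4a sKO libraries, and the genotypes overlapped (log2 fold change 0.10, SE 0.11). The weak peak near the start of Myh4, the fastest isoform, had 63, 56 and 64 in control and 93, 78 and 86 in Taf4a sKO libraries. The genotypes did not overlap, but the peak did not pass the threshold (log2 fold change 0.48, SE 0.20, adjusted p = 0.057, limma). Calls among these genes depended on the setting. The Myh4 peak was higher with quantile normalization (0.46, adjusted p = 0.043, limma), which also called Myh7 lower (-0.48). Without control replicate 3 the same Myh4 peak (0.52), a Myh4 peak 7896 bp upstream (0.70) and the Myh1 start (0.21) were higher. The peak 7896 bp upstream lies in an intron of the transcript Myhas. The remaining peaks of the cluster, an intronic one of Myh1, both of Myh3 and the other two of Myh4, had log2 fold changes from -0.20 to 0.34, overlapped between genotypes and were not called. Myh7, the slow myosin on chromosome 14, had a single peak 2794 bp upstream, with 318, 375 and 289 in control and 329, 210 and 279 in Taf4a sKO libraries.

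**Figure D4:**
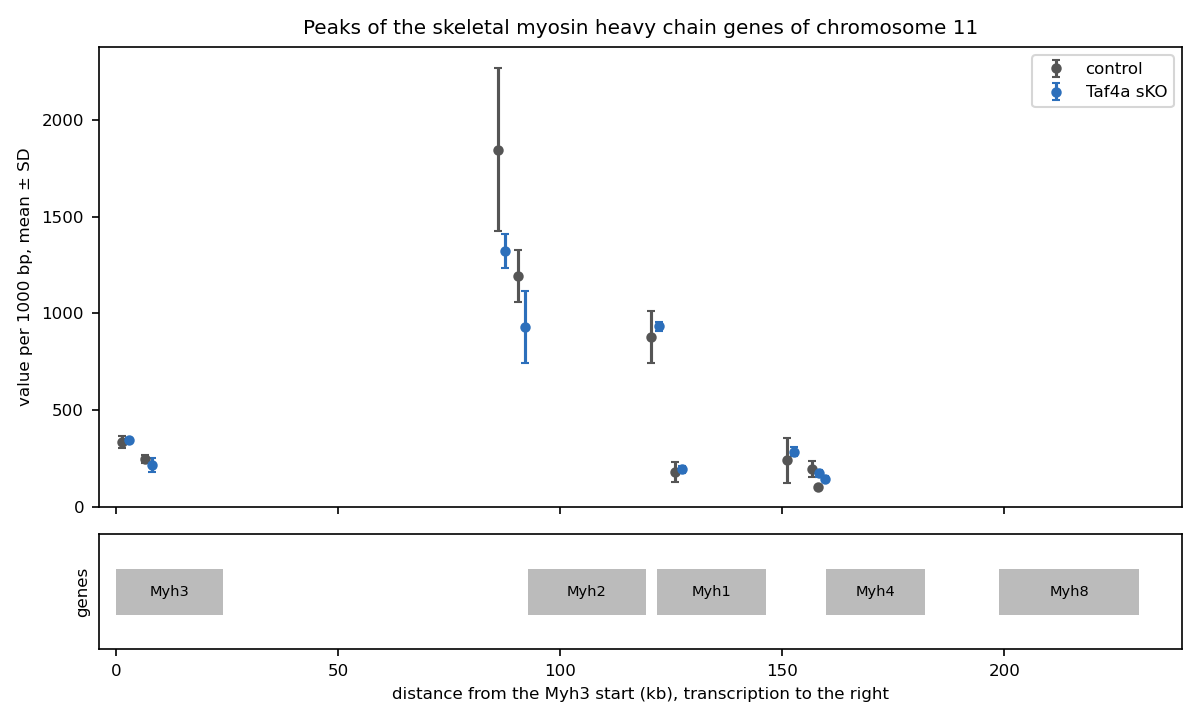
Value per 1000 bp (mean ± SD, n = 3 libraries per genotype) of the peaks of the chromosome 11 myosin heavy chain genes by distance from the Myh3 start in kb, with the genes drawn below. The points of the genotypes are drawn slightly to either side of each peak's centre. The peaks with the highest values lie before Myh2, where the Taf4a sKO means are lower.

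Among the myosin light chains, which bind the neck of the motor, one peak annotated to Myl1 and one to Myl4 fell. None of the 8 peaks of this role rose, against 28.0% higher and 13.9% lower over all tested peaks. Myl1 encodes fast essential light chains from alternative starts, and its peak within the gene (chr1:66940829-66941396) fell from 368, 315 and 377 to 186, 170 and 183. The genotypes were far apart, and the log2 fold change of -0.97 had the smallest adjusted p of the set (SE 0.14, adjusted p = 1.1e-05, limma). Myl4 encodes an atrial and embryonic light chain. Its intragenic peak, shown above, fell from 38, 30 and 41 to 14, 11 and 9 (log2 fold change -1.61, SE 0.35, adjusted p = 6.7e-04, limma) and was classed as lost. Other peaks over Myl4, which carry no symbol of the set, moved both ways, and of 9 peaks in or near the gene 2 were higher and 3 lower. A stronger intronic peak (chr11:104567666-104568350) rose from 232, 331 and 415 to 647, 726 and 649 (1.08, SE 0.17, adjusted p = 5.7e-05, limma) and was classed as gained. The remaining 6 peaks of Myl2, Myl3 and Mylpf, light chains of slow and fast fibres, were not called, and their log2 fold changes ranged from -0.23 to 0.28. In other fits an Myl3 peak was lower (-0.26 with median-of-ratios factors and -0.35 with quantile normalization) and the Mylpf promoter peak was higher (0.23 without control replicate 3).

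Both peaks annotated to Acta1 fell, whereas peaks of the actinins, which anchor actin at the Z-disc, moved in both directions. Acta1, the actin of the adult skeletal thin filament, had a peak 3196 bp from its start (chr8:123891169-123891940) with 279, 317 and 280 in control and 205, 169 and 178 in Taf4a sKO libraries, a log2 fold change of -0.67 (SE 0.15, adjusted p = 8.5e-04, limma). A stronger peak 9814 bp from the start had 892, 877 and 1139 against 830, 732 and 676 and was lower as well (-0.37, SE 0.12, adjusted p = 0.018, limma), though not without Taf4a sKO replicate 2 (adjusted p = 0.052) or replicate 3 (adjusted p = 0.11). Both lie in introns of an overlapping transcript, Gm20388. Actc1, the actin of cardiac and embryonic muscle, had a weak peak of 47, 44 and 48 against 62, 33 and 65, which was not called. Within Actn3, the fast-fibre actinin, an exonic peak shown above rose from 61, 76 and 58 to 139, 95 and 112 (log2 fold change 0.81, SE 0.20, adjusted p = 0.0024, limma). An intronic peak of the same gene, 1333 bp from its start, fell from 885, 721 and 776 to 586, 530 and 624 (-0.45, SE 0.12, adjusted p = 0.0043, limma). The Actn2 promoter rose slightly from 559, 528 and 569 to 691, 696 and 648 (0.30, SE 0.12, adjusted p = 0.044, limma), a call that was lost under both other scalings and in 5 of the 6 fits that left out a library.

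The troponins, which make the thin filament sensitive to calcium, and the tropomyosins, which cover the myosin-binding sites of actin, accounted for 21 peaks at 10 genes and gave 2 calls, 1 higher and 1 lower, with 41.9% of all tested peaks called. This count depended on the scaling, since median-of-ratios factors added a fall at the Tpm2 promoter and quantile normalization added 7 falls, at Tnni2, Tnnt1, Tnnt3, Tpm1 (2 peaks), Tpm2 and Tpm3, while a Tnni1 peak was higher without control replicate 3 (0.29). Tnnt2, the cardiac troponin T that is also made in embryonic skeletal muscle, had a small peak at its start with 31, 34 and 23 in control and 7, 7 and 15 in Taf4a sKO libraries. This peak was classed as lost (log2 fold change -1.57, SE 0.40, adjusted p = 0.0027, limma). Tnnc1, the slow and cardiac troponin C, had a peak 10268 bp from its start, in an intron of Nisch, that rose from 538, 533 and 740 to 866, 867 and 840 (0.52, SE 0.13, adjusted p = 0.0021, limma). The other 19 peaks were not called, including those of the fast troponins Tnni2, Tnnt3 and Tnnc2 and the slow troponins Tnni1 and Tnnt1. Their log2 fold changes ranged from -0.16 to 0.26. Tpm1, Tpm2 and Tpm3 are also used by non-muscle cells, and their peaks spanned a wide range of control values per 1000 bp. The exonic peaks of Tpm1 and Tpm3 stood at 2074 and 2003, the Tpm1 promoter at 485 and the peaks of Tpm2 between 244 and 840, with a median of 440 over the 77 peaks. The exonic peak of Tpm3 had 3115, 2724 and 3295 in control and 3419, 3121 and 3173 in Taf4a sKO libraries, and the Tpm1 promoter 863, 861 and 1048 against 909, 948 and 951.

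Peaks of the giant, Z-disc and M-band proteins included 3 rises and 4 falls among 20 (15% and 20%), against the 28.0% and 13.9% of all tested peaks. With quantile normalization 8 of the 20 were lower, the added ones being the promoters of Des and Myom1, the peak upstream of Mybpc1 (-0.37) and one of Tcap (-0.47). Neb encodes nebulin, a ruler of the thin filament. Its promoter rose from 124, 138 and 159 to 226, 221 and 197 (log2 fold change 0.61, SE 0.16, adjusted p = 0.0032, limma), and an intronic peak 7270 bp into the gene rose from 99, 95 and 126 to 194, 160 and 154 (0.67, SE 0.17, adjusted p = 0.0036, limma). In contrast, a peak 2144 bp upstream of Ttn, the gene of the molecular spring titin, fell from 147, 121 and 111 to 96, 58 and 63 (-0.82, SE 0.21, adjusted p = 0.0027, limma). Mybpc1, the slow myosin-binding protein C, lost signal at its promoter, from 364, 383 and 381 to 236, 153 and 210 (-0.93, SE 0.16, adjusted p = 4.9e-05, limma). Its small intronic peak, shown above, fell from 26, 38 and 22 to 14, 12 and 9 (-1.21, SE 0.37, adjusted p = 0.011, limma) and was classed as lost, a call not reached without control replicate 2 (adjusted p = 0.088, limma), while the peak 1033 bp upstream was not called. An intronic peak of the fast form Mybpc2 fell from 150, 103 and 143 to 89, 89 and 99 (-0.49, SE 0.19, adjusted p = 0.036, limma), a call that was lost in 4 of the 6 fits that left out a library (without control replicate 1 or 3 and without Taf4a sKO replicate 1 or 2). Of the 3 desmin peaks, 1 was called. The peak 2598 bp upstream of Des rose from 565, 522 and 622 to 756, 813 and 741 (0.44, SE 0.12, adjusted p = 0.0045, limma). The strong promoter peak given above was lower in all Taf4a sKO libraries without passing the threshold (-0.25, SE 0.10, adjusted p = 0.051, limma), and it passed under both other scalings. An exonic peak of Des had 367, 323 and 350 against 386, 325 and 337. The Myom1 peak, of 4133, 3894 and 4810 against 4530, 4149 and 4103, overlapped between genotypes (-0.00, SE 0.10), but it was lower with median-of-ratios factors (-0.11, adjusted p = 0.017, limma) and with quantile normalization (-0.098, adjusted p = 0.0086, limma).

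Genes of excitation-contraction coupling, which links the action potential to calcium release, had 3 peaks. Atp2a1 encodes the fast calcium pump of the sarcoplasmic reticulum, and its peak 1124 bp upstream fell from 221, 260 and 248 to 168, 132 and 169 (log2 fold change -0.64, SE 0.16, adjusted p = 0.0021, limma). The farther peak of Atp2a1 and the promoter of the calcium release channel Ryr1 (253, 230 and 248 against 235, 249 and 248) overlapped between genotypes.

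Subunits of the acetylcholine receptor, which receives the signal of the motor nerve, had 3 rises and 1 fall among 7 peaks, too few to set against the 28.0% and 13.9% of all tested peaks. Chrna1, the ligand-binding alpha subunit, had 4 peaks, of which 3 rose. The peak 8879 bp upstream, shown above, rose from 149, 148 and 168 to 203, 291 and 255 (log2 fold change 0.67, SE 0.16, adjusted p = 0.0017, limma). A peak 4933 bp upstream rose from 929, 853 and 1127 to 1311, 1248 and 1313 (0.42, SE 0.11, adjusted p = 0.0044, limma), and the promoter from 821, 824 and 815 to 1100, 987 and 1066 (0.36, SE 0.11, adjusted p = 0.0095, limma). The call at the promoter was lost with quantile normalization (0.15, adjusted p = 0.12, limma) and without Taf4a sKO replicate 1 or 3, and the fourth peak was higher without control replicate 3 (0.26). The promoter of Chrnd, the delta subunit, fell from 229, 275 and 372 to 161, 133 and 208 (-0.79, SE 0.19, adjusted p = 0.0023, limma), and its other peak was lower with quantile normalization (-0.30). The promoter of the fetal gamma subunit Chrng was weak and overlapped between genotypes, with 40, 67 and 46 against 67, 47 and 57.

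Mymk, whose membrane protein is required for the fusion of myoblasts, had the largest rise. Its single peak near the start, shown above, rose from 19, 22 and 21 to 64, 53 and 63 (log2 fold change 1.49, SE 0.27, adjusted p = 9.9e-05, limma) and was the only gained peak of the set. It had the lowest control value per 1000 bp of the promoter peaks, so the rise starts from few reads. Ckm, the creatine kinase that buffers ATP in fibres, had 324, 303 and 384 in control and 344, 333 and 294 in Taf4a sKO libraries (-0.05, SE 0.14), and the genotypes overlapped. The Ckm peak is centred 862 bp from the annotated 5′ end and 5457 bp from the RefSeq start.

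**Figure D5:**
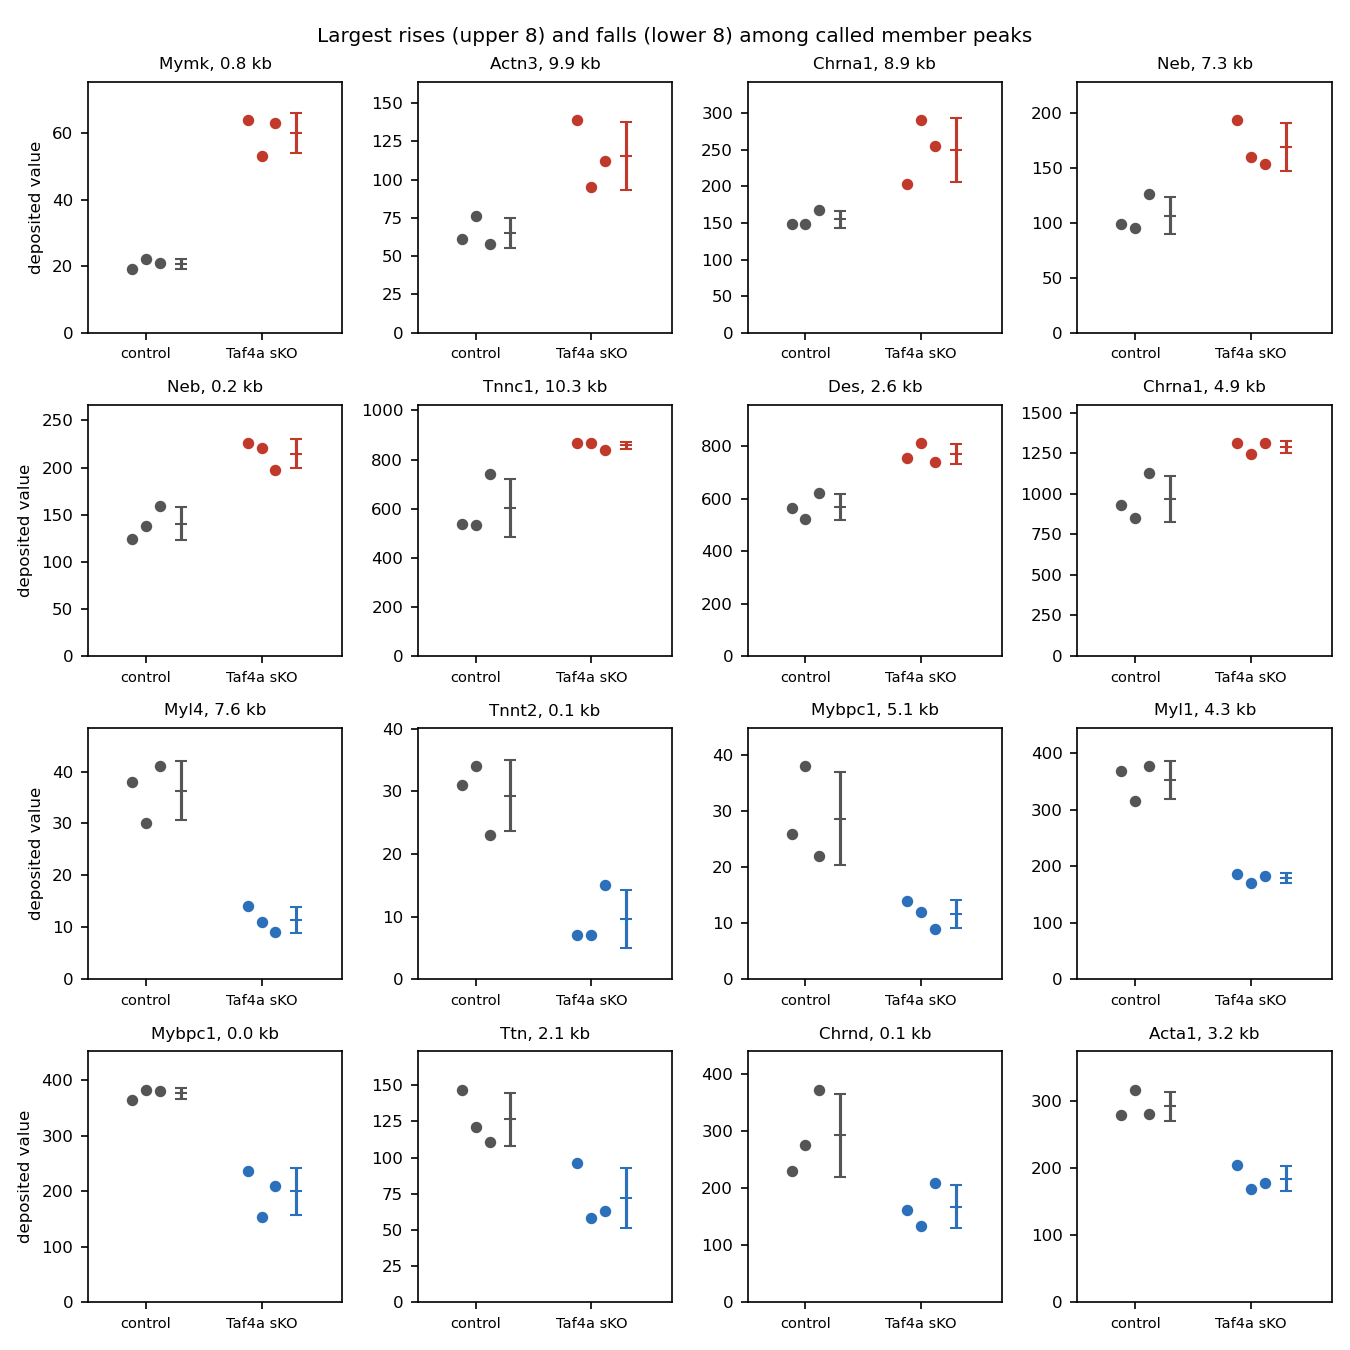
Deposited value in each library (points, 3 per genotype) with the mean ± SD beside them, for the 8 largest rises (upper panels) and the 8 largest falls (lower panels) among called peaks whose genotypes do not overlap. Panel titles give the gene and the distance of the peak's centre from its start. All y axes start at 0.

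By place, 4 of the 21 promoter peaks of the set were higher (19.05%) and 3 lower (14.3%). Among 12049 tested promoter peaks of protein-coding genes, 1209 were higher (10.03%) and 683 lower (5.67%), so that at promoters the share of rises in the set was above this background and not below it. The share rests on Mymk, Neb, Chrna1 and Actn2. The last 2 were not called without Taf4a sKO replicate 1 or without replicate 3, which leaves 2 of 21 (9.52%). In these fits 6.66% and 6.57% of coding promoter peaks were higher. Without control replicate 3, on the other hand, 7 of 21 were higher, compared with 27.6% of coding promoter peaks in that fit. Lower promoter peaks numbered 6 with median-of-ratios factors (28.6%, against 23.1% of coding promoters) and 7 with quantile normalization (33.3% against 35.1%). Under each of these scalings 3 were higher (14.3%, against 9.93% and 8.97% of coding promoters). Away from the 5′ end, 6 of 56 peaks were higher (10.7%) and 11 lower (19.6%), compared with 26.0% and 14.0% of 11304 such peaks of protein-coding genes. Near the fold threshold, Mybpc1 (intronic) was inside with a log2 ratio of group means of -1.23, and Myl1 and the Mybpc1 promoter were just outside at -0.97 and -0.91.

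Many peaks within these genes carry no symbol in the deposited annotation. Peaks that overlap a gene body or lie within 10000 bp of a start numbered 153, of which 77 were not under a symbol of the set. Of these 77, 18 were higher and 15 lower, with 28.0% and 13.9% of all tested peaks called in these directions. They include regions of genes without an annotated peak, and the following were chosen for description after their values were seen. Ldb3, which encodes the Z-disc protein ZASP, held 7 peaks, 3 higher and 2 lower. The strongest change of these was a gained intronic peak (chr14:34564710-34565075), which rose from 83, 108 and 126 to 391, 389 and 405 (log2 fold change 1.91, SE 0.16, adjusted p = 7.7e-09, limma). In Cacna1s, the voltage sensor of the T-tubule, 2 of 4 peaks in the gene were lower and none higher. In Myom1, an intronic peak (chr17:71049277-71049869) fell from 221, 203 and 216 to 76, 108 and 85 (-1.26, SE 0.17, adjusted p = 4.1e-06, limma), while one at chr17:71102437-71103219 rose from 106, 118 and 126 to 253, 267 and 231 (1.10, SE 0.16, adjusted p = 6.7e-06, limma). For Casq2, Myoz2 and Myh8 no peak was found within the gene or within 10000 bp of its start.

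Further genes of the muscle fibre and the regulators of myogenesis were set beside these values. In a list of 67 other fibre genes, 49 had peaks, and of their 101 peaks 27 (26.7%) were higher, 13 (12.9%) lower, 9 gained and 2 lost. Over all tested peaks 28.0% were higher and 13.9% lower, and over those annotated to protein-coding genes 17.8% and 9.68%. Under median-of-ratios factors and quantile normalization 26 and 25 of these peaks were lower, against 22.5% and 25.1% of all tested peaks. The largest rise was at Trim63, a ubiquitin ligase of the sarcomere, from 28, 31 and 34 to 114, 156 and 188 (log2 fold change 2.24, SE 0.22, adjusted p = 6.3e-08, limma). The largest fall was at the promoter of Synpo2l, a Z-disc protein, from 132, 138 and 131 to 68, 30 and 48 (-1.51, SE 0.24, adjusted p = 4.0e-05, limma). Of 11 myogenic regulators, 10 had peaks, Mef2c having none, and of 33 peaks 14 were higher (42.4%) and 3 lower (9.09%), compared with the same 28.0% and 13.9%. These counts moved to 12 higher and 8 lower with median-of-ratios factors (25.3% and 22.5% of all tested peaks). With quantile normalization they were 9 and 9 (24.8% and 25.1%), and 9 were higher without Taf4a sKO replicate 1 (23.0%). The 3 falls were at Myog, the regulator of terminal differentiation, with 2 and at the promoter of Pax7. The Pax7 promoter fell from 4533, 3128 and 3729 to 3084, 2923 and 3026 (-0.32, SE 0.11, adjusted p = 0.030, limma), while 4 other peaks of Pax7 were higher. The Myog promoter fell from 282, 297 and 224 to 160, 143 and 137 (-0.86, SE 0.16, adjusted p = 1.3e-04, limma). The Myod1 promoter, by contrast, rose from 1591, 1710 and 1866 to 2302, 1949 and 2076 (0.29, SE 0.11, adjusted p = 0.028, limma).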

How the data were processed

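ATAC-seq values of 6 libraries were used. The authors trimmed reads with Trimmomatic 0.39, aligned them to mm10 with STAR, removed duplicate and multi-mapping reads, called peaks per sample, counted reads in the unified peaks and scaled counts for depth. The deposited values are therefore a score per peak and library, rounded, and not raw counts. A read shift for Tn5 is not given in the sources used here. From these values, limma 3.58.1 (R 4.3.3, trend and robust) was run on log2(value + 1) for peaks with a mean above 10, with Benjamini-Hochberg adjustment. Coordinates were read as 1-based, which the table does not state. Genes came from GENCODE vM21, sequences from RefSeq GRCm38.p6 (37 of 46 genes with a promoter entry).

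The genes and lists were chosen with earlier results of these data known, so their counts are descriptions. Named peaks were the 8 largest rises and falls among calls without overlap, the 8 densest and 4 weakest promoters, all peaks of the chromosome 11 Myh genes, and those of Ckm, Acta1, Des and Mymk. Other peaks are given by role. Replicates are biological according to the methods, and the labels name no batch. The precision is set by 3 libraries per genotype, and value sums per library ranged from 35226223 to 44311913. Alternatives covered scaling, pseudocount, filter, replicate block, single libraries left out, gene assignment, fold threshold and promoter definition. A further list of cell type markers is not reported here.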

Additional observations from a re-analysis of the deposited data

How the results depend on the processing

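The direction of all 24 called peaks held under the alternatives run. The median of all tested peaks moved from 0.11 to -0.01 with median-of-ratios factors and to -0.02 with quantile normalization, and that of the 77 peaks from 0.02 to -0.088 and -0.13, so that it stayed 0.08 to 0.10 below the median of all peaks. Over all tested peaks the split of higher and lower calls moved to 25.3% and 22.5% with median-of-ratios factors and to 24.8% and 25.1% with quantile normalization. With quantile normalization 28 of the 77 peaks were lower. For the 67 fibre genes 26 and 25 peaks were lower under median-of-ratios factors and quantile normalization, and for myogenic regulators 8 and 9 were lower and, with the latter, 9 higher. Under these scalings the uncalled peaks over the Myh1 start (-0.015 and -0.078), Myh3 nearest its start (-0.070 and -0.13) and the Des exon (-0.10 and -0.20) changed sign. Lost peaks numbered 5 with median-of-ratios factors. At a 1.5-fold threshold 5 were gained and 9 lost, and with a mean above 50, which removes Mymk, Myl4, Tnnt2 and the intronic Mybpc1 peak, 0 were gained and 0 lost. Assigned by gene body or 10000 bp, 27 peaks were higher and 29 lower. Within 3000 bp of the 5′ end 37 genes had a peak. The RefSeq and any-transcript definitions were chosen after seeing the data. Without division by peak length, the median promoter stood at percentile 15.8.

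Leaving out 1 library at a time gave 8 to 16 higher peaks, the latter without control replicate 3. Lost peaks ranged from 3 to 5, the latter without Taf4a sKO replicate 1, and higher peaks of myogenic regulators from 9, without the same library, to 15. Uncalled peaks changed sign in some of these fits, with ranges of -0.067 to 0.085 at Myom1, -0.0082 to 0.21 at the Myh1 start, -0.12 to 0.29 at the intronic Myh1 peak, -0.014 to 0.12 at Myh3, -0.13 to 0.043 at Ckm and -0.065 to 0.059 at the Des exon.

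With the replicate number as a block, 24 peaks were called, 23 of them shared. Actn2 was not called (log2 fold change 0.30, adjusted p = 0.056, limma) and an intronic Myoz1 peak was added. Deviations of same-numbered libraries correlated at 0.11, -0.12 and -0.03 across peaks, and those of differently numbered libraries at -0.12 to 0.15. With 3 libraries per genotype these values cannot decide whether the numbers pair the samples. The tests rest on 3 libraries per genotype, and small peaks such as those of Mymk and Tnnt2 rest on few reads.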
